A study of Homo sapiens with 16 samples.

Results

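The 10 transcription factor genes followed here were FOS, FOSB, FOSL1, FOSL2, JUN, JUNB and JUND of the AP-1 family, the stress-response factor ATF3, and the C/EBP factors CEBPB and CEBPD. They were taken from a list by gene symbol, which was matched to the Ensembl identifiers of the deposited table. All 10 members were found among its 60649 features, and all 10 were among the 19103 genes with enough counts to be tested. Poly(A)-enriched RNA was sequenced from ASC52telo, an immortalized line of adipose-derived mesenchymal stem cells (MSCs), in 16 libraries. The 4 groups of 4 libraries shared the line and the wild-type genotype. "Young" MmC-/GDF11- cells received no agent, and MmC-/GDF11+ cells received recombinant growth differentiation factor 11 (GDF11) at 10 ng/mL. Senescent MmC+/GDF11- cells were exposed for 18 h to 1.5 µg/mL mitomycin C (MmC), an alkylating agent of DNA. MmC+/GDF11+ cells received the same exposure and then GDF11. GDF11 was added over the 10 days that followed the exposure. The study describes the 4 libraries of a group as biological replicates. A single immortalized line was used, so the replicates do not represent different donors.

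AP-1 is a dimer of basic leucine zipper (bZIP) proteins, usually a Fos protein with a Jun protein or a pair of Jun proteins, which binds the TPA response element of its target genes. Several of its members are immediate early genes, which cells transcribe within minutes of a growth or stress signal relayed by MAP kinases. C/EBP proteins are bZIP factors that pair mainly with one another, drive acute-phase and cytokine genes and act early in fat cell formation. In senescent fibroblasts, CEBPB is known as an activator of secreted inflammatory factors.

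Promoter sequences were taken from RefSeq on GRCh38.p14, from 250 bases before to 50 bases after the start of transcription. Windows were found for FOS, FOSB, FOSL2, JUN, JUNB, JUND, ATF3 (2 starts) and CEBPB (2 starts). FOSL1 was missing from that table, and the CEBPD promoter was not used here. The 100 bases before the start are shown for FOSB, which had the largest fold change of the members after MmC, for its close relative FOS, and for JUNB and CEBPB. All of these have the same TATAAA word at a like distance from the start. Capitals mark TATAAA and the cyclic AMP response element (CRE) core TGACG.
FOS promoter (chr14:75278728-75278827, plus strand): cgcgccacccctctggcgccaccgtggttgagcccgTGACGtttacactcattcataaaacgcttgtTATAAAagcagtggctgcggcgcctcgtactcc
FOSB promoter (chr19:45467896-45467995, plus strand): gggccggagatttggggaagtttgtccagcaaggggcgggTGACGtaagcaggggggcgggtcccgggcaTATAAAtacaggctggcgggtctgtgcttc
JUNB promoter (chr19:12791386-12791485, plus strand): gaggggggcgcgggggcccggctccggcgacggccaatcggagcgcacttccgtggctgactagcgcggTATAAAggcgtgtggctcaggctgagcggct
CEBPB promoter (chr20:50190730-50190829, plus strand): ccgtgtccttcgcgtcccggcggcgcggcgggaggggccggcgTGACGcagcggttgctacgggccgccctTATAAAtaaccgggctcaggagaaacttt
In FOS, FOSB, JUNB and CEBPB the TATAAA word began at positions -33, -30, -31 and -29 relative to the start. ATF3 had it farther upstream, at -230 of its second window. Of all 35116 RefSeq windows of 300 bases, 11.5% held TATAAA on either strand. The core TGACG began at -64 in FOS, -60 in FOSB and -57 in CEBPB. JUNB had it at -137, outside the stretch shown, and FOSL2, JUN and JUND also held it on 1 strand or the other. This core was looked for after the sequences had been seen, and 24.6% of all windows held it on either strand.
The words bound by the factors themselves were found in few members. The AP-1 word TGANTCA was found on both strands in FOSL2 alone of the members with a window, starting at base 5 of the transcript (7.71% of all windows). The full CRE word TGACGTCA, which contains the core TGACG, was found in JUND alone, starting at -200 (1.85% of all windows). The sites are shown with 10 bases on each side, with the word in capitals.
FOSL2 (chr2:28392852-28392878, plus strand): gccattgtagTGACTCAtctcgggcag
JUND (chr19:18281805-18281832, minus strand): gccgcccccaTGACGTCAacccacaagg
The C/EBP word TTGCNNAA was found in the second ATF3 window, at -5 (10.5% of all windows). The CArG box of serum response factor and the NF-kappaB word were found in 0 of these windows, against 1.29% and 5.91% of all windows. A match of letters describes the sequence and is not evidence of binding. Sites outside these windows or with other letters were not looked for, so a missing word does not show that a site is absent.

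Libraries held 71275337 to 144204979 counted reads, with a median of 86044010. Levels are given as TMM-scaled CPM, the counts of a gene relative to all counts of its library. The 5 MSC surface markers NT5E, THY1, ENG, CD44 and ITGB1 were counted in every library, with median CPM between 557 and 2173. Of these 5, 2 were higher and 0 lower after MmC without GDF11 (22.9% and 22.4% of all genes). With GDF11, 3 were higher and 0 lower (23.4% and 23.3% of all genes). NT5E and ITGB1 had log2 fold changes of 0.38 and 0.35 without GDF11. Of 15 markers of other cell types, MYOD1, KRT5, ADIPOQ and EPCAM had 0 counts in 14, 10, 9 and 6 libraries. The summed level of the 15 markers was 20.8 to 34.7 CPM in MmC-/GDF11-, 21.4 to 26.9 in MmC-/GDF11+, 26.3 to 37.7 in MmC+/GDF11- and up to 35.5 in MmC+/GDF11+. Of the 10 that were tested, 3 were higher and 2 lower after MmC without GDF11, and 5 were higher and 2 lower with GDF11, where 22.9% and 22.4% of all genes were higher and lower without GDF11 and 23.4% and 23.3% with it. CD14 rose from 1.69 ± 0.388 to 2.92 ± 1.28 CPM (SD, n = 4) after MmC without GDF11. Of the endothelial markers, PECAM1 rose from 5.96 ± 1.20 to 14.4 ± 5.90 CPM (SD, n = 4) and CDH5 fell by 1.51 on the log2 scale. CDH5 was named after its values were seen. The share of mitochondrial counts was 2.81% to 3.11% in MmC-/GDF11- and 3.55% to 4.48% in MmC+/GDF11-. The part of the marker genes and of the mitochondrial share in the results was not tested. In bulk RNA, fewer cells of a type and less RNA per cell cannot be told apart.

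The members differed widely in level. Per kilobase of exon in MmC-/GDF11- (mean ± SD of CPM per kilobase, n = 4), FOSL1 had 68.4 ± 21.6, JUND 66.2 ± 4.86, JUNB 51.6 ± 8.01, CEBPB 47.3 ± 6.30, JUN 46.1 ± 7.28 and CEBPD 41.2 ± 9.57. The libraries of each of these genes overlapped those of the next in the order. FOSL2 followed with 29.0 ± 3.05, ATF3 with 6.53 ± 0.990, FOS with 1.47 ± 1.08 and FOSB with 0.238 ± 0.0430, and here no gene overlapped its neighbour in the order. The AP-1 RNA of the unexposed line was thus mostly that of FOSL1, FOSL2 and the Jun genes, while FOS and FOSB, the fast responders of the family, were low. With the length of the longest transcript in place of the union of exons, ATF3 had 12.4 CPM per kilobase and kept its place in the order.

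**Figure D1:**
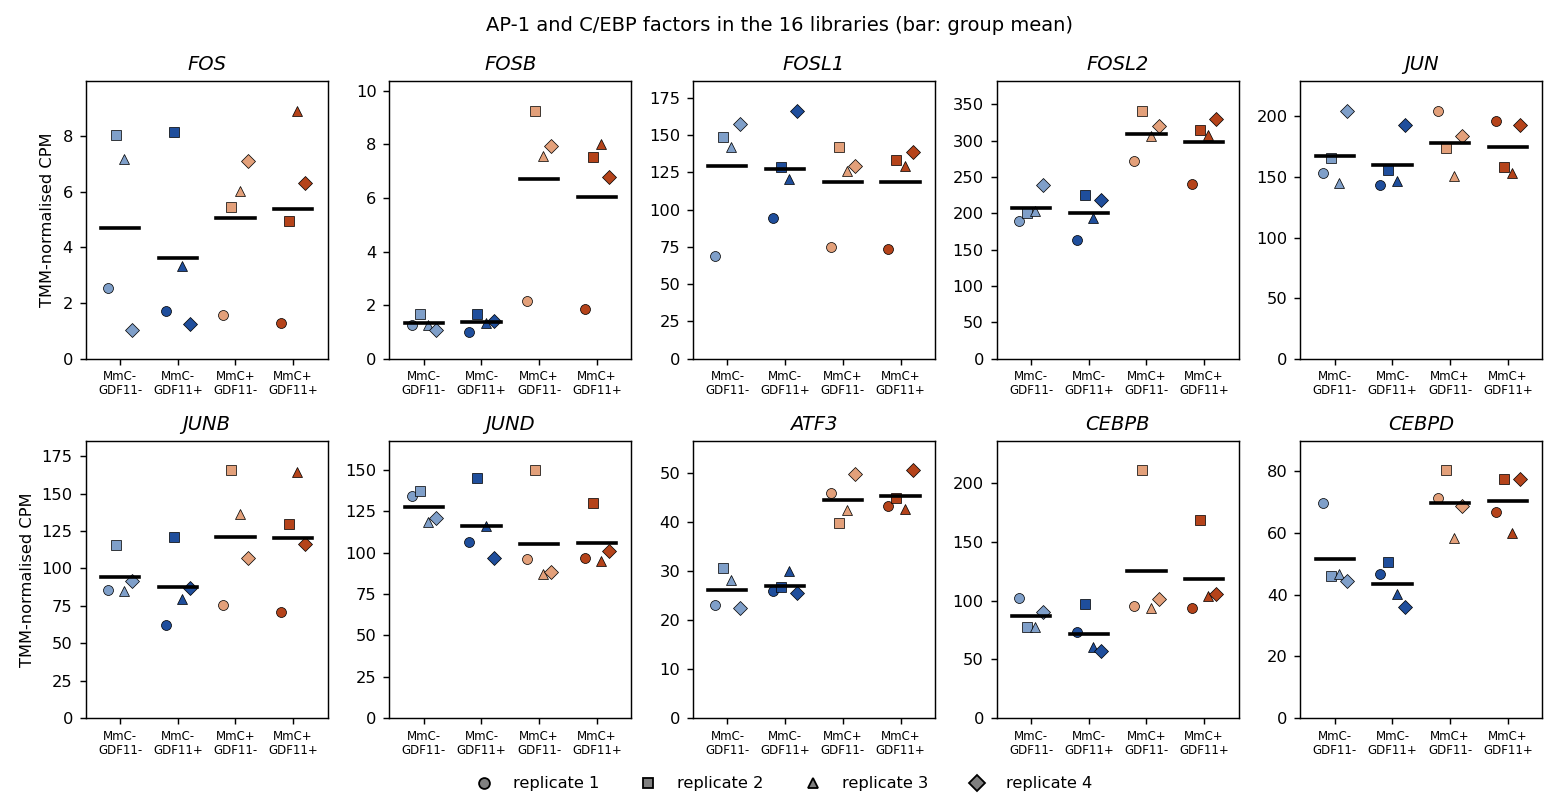
TMM-normalised CPM of each factor (linear axis from 0) in the 4 groups, 1 point per library with the symbol giving the replicate number and a bar at the group mean. FOSB, FOSL2 and ATF3 of the MmC+ libraries lie above all MmC- libraries of the same GDF11 condition, and replicate 1 is the lowest MmC+ library for FOSB, with 2.16 and 1.85 CPM.

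The effect of MmC was measured by setting senescent against "young" cells, without and with GDF11. The 2 comparisons share no library with each other, but each shares its libraries with the comparisons of GDF11. Without GDF11, FOSB, FOSL2, ATF3 and CEBPD rose, and with GDF11 these 4 genes and CEBPB rose, with the quasi-likelihood test of edgeR and a Benjamini-Hochberg threshold of 0.05. SE is the standard error of a log2 fold change. The threshold was the same throughout. No member was called lower in this fit, which has no replicate term. JUND and FOSL1 had negative log2 fold changes in both comparisons and were not called. With the replicate number as a block, 5 members were called without GDF11, where 11066 of all 19103 genes were called. There JUND was lower (log2 fold change -0.32, edgeR adjusted p = 0.00934). Without the block, 4 of 10 members were called, all higher, without GDF11, where 45.3% of all 19103 tested genes were called (22.9% higher and 22.4% lower). With GDF11 it was 5 of 10, where 46.7% of all genes were called (23.4% and 23.3%). The median log2 fold change of the members was 0.39 without and 0.58 with GDF11, and -0.01 over all genes in both. The libraries of the compared groups did not overlap for 3 members without GDF11 (37.3% of all genes) and for 4 with GDF11 (41.5%).

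In the Fos family, FOSB changed most. FOSB (ENSG00000125740.14, chromosome 19 of hg38 from 45467995 to 45475179) encodes a full-length protein and, by splicing, a truncated and unusually stable one, which gene counts do not separate. In MmC-/GDF11- its replicates 1 to 4 had 1.27, 1.66, 1.27 and 1.09 CPM, and in MmC+/GDF11- they had 2.16, 9.25, 7.56 and 7.93 CPM. The groups did not overlap, and replicate 1 of the senescent cells was far below the others. The rise was 5.08-fold, or 2.34 on the log2 scale (SE 0.439, edgeR adjusted p = 0.000558). With GDF11 the values were 1.00, 1.68, 1.34 and 1.41 CPM in "young" and 1.85, 7.53, 8.01 and 6.76 CPM in senescent cells, a 4.45-fold rise (log2 fold change 2.16, SE 0.438, edgeR adjusted p = 0.00102). In same-numbered libraries the log2 ratio was 0.76 for replicate 1 and between 2.48 and 2.86 for replicates 2 to 4 without GDF11, and 0.88 against 2.17 to 2.58 with GDF11. Without replicate 1 in all groups, the log2 fold changes were 2.62 and 2.34.

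FOS (ENSG00000170345.10, chromosome 14 from 75278826 to 75282230), the classic serum-induced member, was not called. In the same order of replicates it had 2.53, 8.04, 7.18 and 1.02 CPM in MmC-/GDF11- and 1.57, 5.45, 6.03 and 7.11 CPM in MmC+/GDF11-, so that the libraries of a group spanned most of the range of the other. The log2 fold change of FOS was 0.10 with a 95% interval from -1.40 to 1.60 without GDF11, and 0.58 from -0.93 to 2.09 with GDF11. The intervals of FOS are wide enough to hold a change of the size seen for FOSL2 or ATF3 in either direction. The ratio of FOSB to FOS per kilobase was 0.280 ± 0.237 (SD, n = 4) in untreated cells, against 0.780 ± 0.142 after MmC alone, with ranges of 0.102 to 0.612 and 0.640 to 0.973 that did not overlap. With GDF11 they did overlap, at 0.118 to 0.651 and 0.516 to 0.875.

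FOSL1 and FOSL2 encode Fra proteins, which lack the strong activation domain of FOS and FOSB. FOSL2 (ENSG00000075426.12, chromosome 2 from 28392448 to 28417317) had 189, 201, 202 and 239 CPM in MmC-/GDF11- and 271, 341, 306 and 320 CPM in MmC+/GDF11-. It rose 1.49-fold without GDF11 (log2 fold change 0.57, SE 0.124, edgeR adjusted p = 0.00141) and by the same factor with GDF11 (0.57, SE 0.124, edgeR adjusted p = 0.00139). FOSL1 (ENSG00000175592.9, chromosome 11 from 65892049 to 65900573) had 68.7, 149, 142 and 157 CPM in MmC-/GDF11- and 74.9, 142, 126 and 129 CPM in MmC+/GDF11-. Replicate 1 was the lowest FOSL1 library in all 4 groups, and the groups overlapped almost fully. The log2 fold change of FOSL1 was -0.13 (95% interval -0.71 to 0.45) without and -0.10 (-0.68 to 0.47) with GDF11.

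The make-up of the Fos family was described as shares, which were not tested. FOSL1 was 67.7% ± 7.14 (SD, n = 4) of the length-scaled Fos RNA in MmC-/GDF11-, against 57.0% ± 4.31 after MmC, with ranges that overlapped. With GDF11 it was 69.4% ± 3.20 and 58.1% ± 3.31, and the ranges of 66.5% to 73.9% and 53.1% to 60.0% did not overlap. FOSL2 made up 30.5% ± 7.32 and 40.5% ± 5.19 without GDF11. FOSB made up 0.254% ± 0.0824 and 1.06% ± 0.381, a small part of the family in both.

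**Figure D2:**
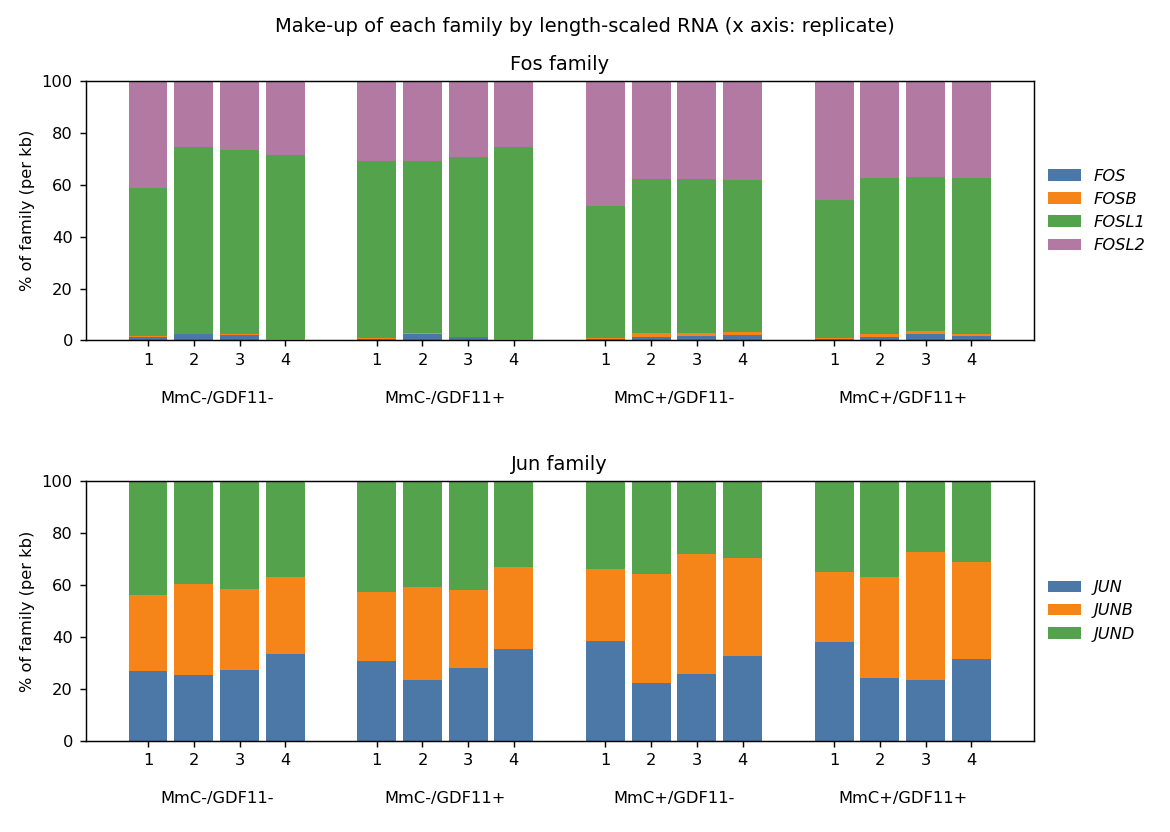
Each bar is a library (x axis: replicate, by group), divided by the share in percent of each gene in the length-scaled RNA of its family. FOSL1 and FOSL2 fill nearly all of the Fos bars, and the JUND part is smaller in MmC+/GDF11- (28.0% to 35.9%) than in MmC-/GDF11- (37.1% to 43.9%), while with GDF11 the ranges overlap (27.1% to 37.0% and 33.2% to 42.8%).

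In the Jun family, whose members can pair with Fos proteins or with each other, no gene was called by the fit without a replicate term. With the replicate block, JUND was lower without GDF11, as given above. JUNB was then higher with GDF11 (log2 fold change 0.45, edgeR adjusted p = 0.0259). JUN (ENSG00000177606.8, chromosome 1 from 58776845 to 58784048), the main partner of Fos proteins, had 153, 166, 145 and 205 CPM in MmC-/GDF11- and 204, 174, 151 and 184 CPM in MmC+/GDF11-. Its log2 fold change was 0.09 (95% interval -0.19 to 0.38) without and 0.13 (-0.15 to 0.42) with GDF11, among the narrowest intervals of the members.
JUNB (ENSG00000171223.6, chromosome 19 from 12791486 to 12793315), often a weaker activator than JUN, had 85.3, 116, 84.9 and 91.9 CPM in MmC-/GDF11- and 75.5, 165, 136 and 107 CPM in MmC+/GDF11-. Its libraries overlapped. Replicate 1 of the senescent cells was the lowest of all, and replicate 4 lay below replicate 2 of the "young" cells. The log2 fold change was 0.36 (adjusted p = 0.290) without and 0.46 (adjusted p = 0.170) with GDF11. Without replicate 1 in all groups it was 0.48 (adjusted p = 0.0497) and 0.52 (0.0367). Of the exonic sequence of JUNB, 14.2% is shared with HOOK2 on the opposite strand, which had at most 14.9 CPM.
JUND (ENSG00000130522.6, chromosome 19 from 18279694 to 18281622), a broadly expressed member that restrains proliferation in fibroblasts, had 134, 137, 118 and 121 CPM in MmC-/GDF11- and 96.0, 150, 86.9 and 88.4 CPM in MmC+/GDF11-. Of the senescent libraries, 3 lay below all "young" ones and replicate 2 above them. The log2 fold change was -0.28 (SE 0.167, edgeR adjusted p = 0.185) without and -0.14 (adjusted p = 0.530) with GDF11. Besides the call with the replicate block given above, it was called lower without replicate 2 of MmC+/GDF11- (-0.49, adjusted p = 0.0105). As a share of the Jun family, JUND was 40.5% ± 2.92 in MmC-/GDF11- and 31.8% ± 3.67 in MmC+/GDF11-, and with GDF11 it was 39.6% ± 4.36 and 32.5% ± 4.42, with ranges that overlapped.

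ATF3 (ENSG00000162772.17, chromosome 1 from 212565334 to 212620777), a bZIP factor induced by many stresses including DNA damage, was measured with the smallest SE of the members. It had 23.1, 30.7, 28.1 and 22.5 CPM in MmC-/GDF11- and 45.9, 39.9, 42.4 and 49.8 CPM in MmC+/GDF11-. All senescent libraries lay above all "young" ones, and replicate 1 did not stand apart. The rise was 1.70-fold without GDF11 (log2 fold change 0.77, SE 0.108, edgeR adjusted p = 3.96e-05) and 1.68-fold with GDF11 (0.75, SE 0.108, edgeR adjusted p = 5.07e-05).

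Of the C/EBP genes, CEBPD was called higher in both comparisons and CEBPB in 1. CEBPD (ENSG00000221869.5, chromosome 8 from 47736913 to 47738164), an acute-phase and early adipogenic factor, had 69.5, 46.0, 46.6 and 44.3 CPM in MmC-/GDF11- and 71.2, 80.1, 58.2 and 68.7 CPM in MmC+/GDF11-. Replicate 1 of the "young" cells lay among the senescent libraries, and the other "young" libraries lay below all of them. The log2 fold change was 0.43 (SE 0.152, edgeR adjusted p = 0.0293). This call was lost when replicate 2, 3 or 4 of MmC-/GDF11- or replicate 2 of MmC+/GDF11- was left out, with an adjusted p of up to 0.0837. With GDF11 the values of CEBPD were 46.7, 50.5, 40.1 and 35.8 CPM in "young" and 66.7, 77.3, 59.9 and 77.3 CPM in senescent cells, which did not overlap (log2 fold change 0.70, SE 0.152, edgeR adjusted p = 0.00143).
CEBPB (ENSG00000172216.6, chromosome 20 from 50190830 to 50192668) is translated into activating and inhibitory proteins from a single mRNA, which RNA counts do not separate. It had 102, 77.7, 77.9 and 90.5 CPM in MmC-/GDF11- and 95.6, 211, 93.4 and 101 CPM in MmC+/GDF11-. Replicate 2 of the senescent cells stood far above the others, which lay within the "young" range. The log2 fold change was 0.53 (95% interval -0.03 to 1.08, adjusted p = 0.115), and 0.16 without replicate 2 of MmC+/GDF11-. With GDF11, CEBPB had 73.6, 97.2, 60.2 and 56.8 CPM in "young" and 93.9, 168, 104 and 106 CPM in senescent cells (log2 fold change 0.71, SE 0.263, edgeR adjusted p = 0.0365). That call was lost when replicate 1, 3 or 4 of MmC-/GDF11+ or replicate 2 of MmC+/GDF11+ was left out, with an adjusted p of up to 0.128. CEBPB-AS1, on the opposite strand, shares 12.6% of the exonic sequence of CEBPB and had at most 0.807 CPM.

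**Figure D3:**
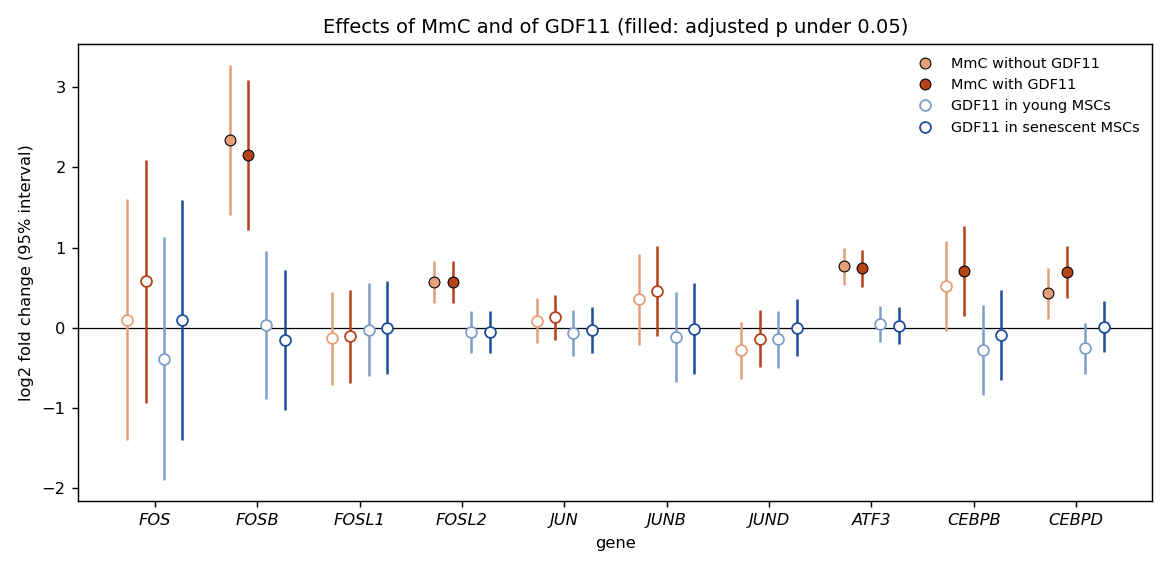
Log2 fold change of each factor with its 95% interval for the 4 pairwise comparisons, filled where the adjusted p was under 0.05. FOSB stands highest at 2.34 and 2.16 for MmC, and the open points of GDF11 lie around 0.

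Added GDF11 was set against its absence in "young" and in senescent cells. No member was called in either comparison, nor was any other gene (0 of 19103, or 0%, by edgeR). With p below 0.05 before adjustment there were 0 members by edgeR, limma-voom and DESeq2, and 226 genes in "young" and 96 in senescent cells by edgeR. With the replicate block there were 551 and 145 genes and 0 members. With the block fitted to the compared libraries alone there were 657 and 474 genes, with 1 member in "young" and 0 in senescent cells. The compared libraries overlapped for all 10 members, where 0.890% of all genes did not overlap in "young" and 0.503% in senescent cells.
The precision differed between genes. The intervals are those of the fit without a replicate term, so differences between replicate numbers are part of their spread. ATF3 had a log2 fold change of 0.05 (95% interval -0.18 to 0.28) in "young" and 0.03 (-0.20 to 0.26) in senescent cells, and FOSL2 -0.05 (-0.32 to 0.21) and -0.05 (-0.32 to 0.21). Those of JUN were -0.07 (-0.35 to 0.22) and -0.03 (-0.31 to 0.26). For FOSB the interval ran from -0.89 to 0.96 in "young" and from -1.03 to 0.72 in senescent cells, and for FOS from -1.89 to 1.13 and from -1.40 to 1.59. The log2 ratios of same-numbered senescent libraries spread less, from -0.30 to 0.08 for FOSB and from -0.27 to 0.56 for FOS. In "young" cells these ratios ran from -0.35 to 0.37 for FOSB and from -1.11 to 0.28 for FOS. Intervals with the replicate block are not given here. Without a replicate term, the lowest unadjusted p by edgeR was that of CEBPD in "young" cells (0.112, log2 fold change -0.25, 95% interval -0.58 to 0.07). There CEBPD was lower in 3 of 4 same-numbered pairs.
Whether GDF11 altered the response to MmC was tested as an interaction over the 4 groups. No member was called, with 0 of 19103 genes passing (172 at an unadjusted p under 0.05) and 0 members at an unadjusted p under 0.05 by edgeR, limma-voom and DESeq2. CEBPD had the lowest unadjusted p (0.224), with a log2 difference of 0.27 (95% interval -0.18 to 0.72). So CEBPB, called with GDF11 alone, was not shown to respond differently (0.19, 95% interval -0.60 to 0.98).

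Libraries of the same group differed by far more than counting noise for several factors. The paper lists batch effects from technical issues among its limitations, without naming the libraries. Their part in this spread was not tested. FOS spanned 1.02 to 8.04 CPM in MmC-/GDF11- and 1.24 to 8.15 CPM in MmC-/GDF11+, with replicate 2 highest and replicate 4 lowest in both. Replicate 1 was the lowest library for FOSL1 and FOSL2 in 4 of 4 groups and for FOSB and JUNB in 3 of 4, but for ATF3 and JUND in 0 of 4. Replicate 2 of both MmC+ groups was the highest for CEBPB and JUND.

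**Figure D4:**
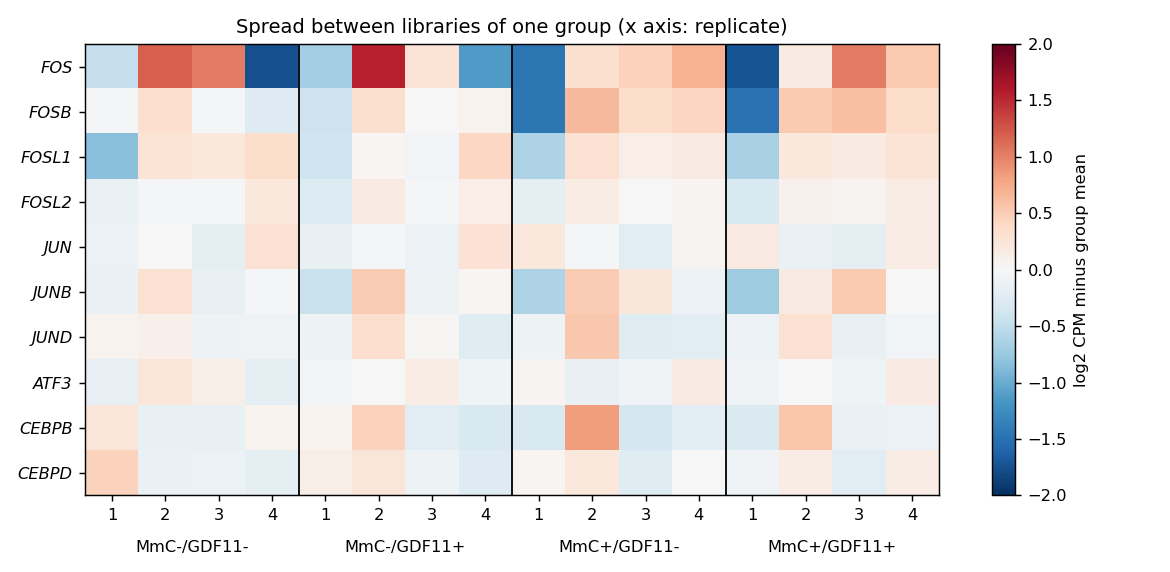
Log2 CPM of each factor in each library minus its group mean, blue for lower and red for higher (x axis: replicate, by group). FOS and FOSB are deep blue in replicate 1 of both MmC+ groups, and CEBPB and JUND are red in replicate 2 of both.

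As a description over the 16 libraries, deviations from the group mean of log2 CPM were correlated between genes. Libraries share depth and handling, so the values are not evidence of regulation. Among the members the highest Pearson r was 0.91 for JUND with CEBPB, followed by 0.88 for FOSB with JUNB, 0.82 for FOSL1 with FOSL2 and 0.75 for FOS with FOSB. Over all protein-coding genes with a mean log2 CPM of at least 1, the nearest patterns to FOS were EGR1 (0.97), ZNF394 (0.94), EGR2 (0.92), EGR3 (0.91) and ATG5 (0.91). EGR1, EGR2 and EGR3 are immediate early zinc finger factors. The nearest to FOSB were TSC22D1 (0.99), CXCL2 (0.98), PECAM1 (0.97), TM4SF1 (0.97) and ZDHHC14 (0.97). JUNB had IER2, another immediate early gene, among its nearest (0.94), after AMPD2, ELL and ITPKA. FOSL1 was nearest to U2AF2 (0.97), FOSL2 to TOP3B (0.96), JUN to NCDN (0.92), ATF3 to COA8 (0.84) and CEBPD to PNRC1 (0.91).
JUND and CEBPB shared EXOSC6 (0.95 and 0.94) and ZNF579 (0.95 and 0.91) as near patterns. The GC content of the longest transcript was 69.9% in JUND, 66.2% in CEBPB, 66.0% in CEBPD and 64.9% in JUNB, at or above the 97th percentile of the genes compared, and 46.7% in ATF3. A GC index was taken per library as the median log2 level of the 10% of genes richest in GC minus that of the 10% poorest, each relative to the mean of all libraries. It was 0.31 in replicate 2 of MmC+/GDF11- and between -0.22 and 0.03 in the others of that group. In replicate 2 of MmC+/GDF11+, where CEBPB was also the highest of its group, it was 0.02, against -0.17 to 0.00394 in the others. In replicate 2 of MmC-/GDF11+ it was 0.25, the highest of its group, as were CEBPB (97.2 CPM) and JUND (145 CPM). Replicate 2 of MmC-/GDF11- had the highest index of all (0.33), with the lowest CEBPB (77.7 CPM) and the highest JUND (137 CPM) of its group. Within groups, r with this index over 16 libraries was 0.83 for JUND, 0.62 for CEBPB, 0.39 for JUNB and 0.36 for CEBPD. It was between -0.09 (ATF3) and 0.14 (FOSL2) for the other members. The part of GC content in the JUND and CEBPB values was not tested.

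The other genes of the pathway were taken from fixed lists and described by counts. Of 34 tested other bZIP factors, 14 were higher and 7 lower after MmC without GDF11, and 13 and 6 with GDF11 (22.9% higher and 22.4% lower among all genes without GDF11). MAFF, a small Maf protein, rose from 45.4 ± 10.6 CPM (SD, n = 4) to 189 ± 38.3 CPM, by 2.06 on the log2 scale. DDIT3, the stress factor CHOP that binds C/EBP proteins, rose from 21.4 ± 5.40 to 63.2 ± 26.2 CPM, and NFE2L1, a regulator of proteasome genes, from 392 ± 57.9 to 1057 ± 139 CPM. NFE2 fell from 5.57 ± 1.96 to 0.767 ± 0.408 CPM and the circadian factor DBP from 7.47 ± 1.18 to 2.82 ± 0.466 CPM. BATF3, which pairs with Jun proteins, had a log2 fold change of -0.88 and was called lower.
Of 30 MAP kinase pathway genes upstream of AP-1, 6 were higher and 9 lower without GDF11, and 7 and 9 with GDF11. The shares of all genes were 22.9% higher and 22.4% lower without GDF11, and 23.4% and 23.3% with it. GADD45A, a p53 target that can activate a stress kinase cascade, rose from 53.3 ± 8.44 to 142 ± 21.7 CPM, while its relative GADD45B fell from 39.7 ± 6.11 to 23.9 ± 3.12 CPM. MAP3K5 and MAP2K1 rose (log2 fold change 0.67 and 0.60), and MAPK12 and MAP3K4 fell (-0.70 and -0.58). Of 7 tested MAP kinase phosphatases, which switch these kinases off, 6 were higher and 0 lower in both comparisons. DUSP6 rose by 2.15 on the log2 scale, DUSP10 from 6.11 ± 0.415 to 21.0 ± 5.61 CPM and DUSP5 from 19.9 ± 2.98 to 41.0 ± 13.5 CPM.

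Of 31 other immediate early genes and their regulators, 18 were higher and 3 lower without GDF11, and 19 and 3 with GDF11. Among all genes, 22.9% were higher and 22.4% lower without GDF11, and 23.4% and 23.3% with it. Among those with a mean log2 CPM of at least 1, the orphan nuclear receptors had the largest fold changes. NR4A1 rose from 3.57 ± 0.677 to 73.0 ± 45.0 CPM, NR4A3 from 1.25 ± 0.570 to 22.8 ± 13.2 CPM and NR4A2 from 1.77 ± 0.316 to 28.9 ± 17.1 CPM (SD, n = 4), with log2 fold changes of 4.35, 4.19 and 4.03. KLF2 fell from 31.5 ± 10.5 to 7.13 ± 3.12 CPM, ZFP36, which degrades cytokine mRNA, from 52.3 ± 10.4 to 30.3 ± 7.44 CPM, and KLF6 from 163 ± 24.2 to 114 ± 21.8 CPM.
Of 29 tested genes listed as AP-1 targets, 24 were higher and 0 lower without GDF11, with a median log2 fold change of 3.19, and 25 and 0 with GDF11, with a median of 3.25. Of 22 tested C/EBP targets, 18 were higher and 3 lower without GDF11 (median 3.76), and 17 and 3 with GDF11 (median 4.04). Over all genes, 22.9% were higher and 22.4% lower without GDF11, and 23.4% and 23.3% with it. The lists share IL6, CXCL8, IL1B and CCL2, and many of their genes also answer to NF-kappaB, so the counts do not single out AP-1 or C/EBP. They were written with earlier results of these data known and are not independent evidence of direction. CXCL8 (log2 fold change 7.44) and IL6 (7.38) were among the highest of both lists. The colony-stimulating factor CSF3 was nearly absent from the "young" cells, at 0.0382 ± 0.0285 CPM, and had 21.1 ± 16.8 CPM after MmC. CSF2, at 0.0360 ± 0.0267 CPM in "young" cells, had a fitted log2 fold change of 9.30, which rests on few counts in these libraries. The C/EBP-dependent adipogenic regulator PPARG fell from 26.1 ± 4.12 to 13.7 ± 4.04 CPM, and SOCS3, an inhibitor of cytokine signalling, from 81.2 ± 15.5 to 52.0 ± 8.25 CPM. Among the members, only FOSB had a fitted change above 2-fold after MmC, at 5.08-fold without and 4.45-fold with GDF11. The intervals of FOS on the log2 scale ran from -1.40 to 1.60 without and from -0.93 to 2.09 with GDF11. They do not exclude a change of FOS above 2-fold. The difference in size between the members and the listed targets was not tested.

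**Figure D5:**
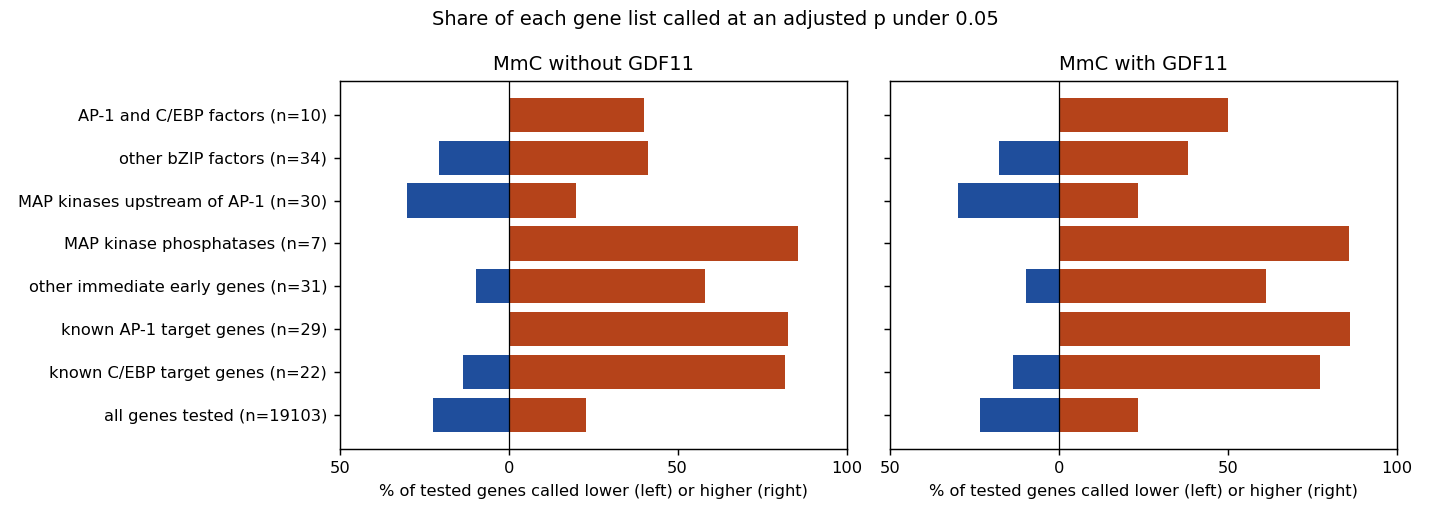
Percent of the tested genes of each list called higher (right, red) or lower (left, blue) after MmC, without and with GDF11, with the number tested in brackets and all 19103 genes at the bottom. The AP-1 targets, C/EBP targets and MAP kinase phosphatases reach furthest to the right, with 82.8%, 81.8% and 85.7% higher without GDF11.

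Genes with the factors' words in their RefSeq promoter window were counted in the same way. Of 12530 tested genes with a window, 23.7% were higher and 24.9% lower after MmC without GDF11. Of the 986 with TGANTCA, 30.4% were higher and 21.3% lower, with a median log2 fold change of 0.07, and with GDF11 the shares were 31.5% and 21.9%. For the 1297 genes with the C/EBP word TTGCNNAA the shares without GDF11 were 25.7% and 25.3%, and for the 443 genes with TGACGTCA they were 27.3% and 22.8%. The 1195 genes with TATAAA, a word of the core promoter and not of these factors, had 30.5% higher and 20.4% lower.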

How the data were processed

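Poly(A) RNA of 16 ASC52telo libraries was sequenced. Per the labels and methods, the authors aligned reads to hg38 with HISAT2 2.2.1, counted them on GENCODE genes with featureCounts 2.0.1 and deposited raw counts per gene. Strand setting, treatment of read pairs and multi-mapping reads are not given in the sources used here, so antisense neighbours cannot be told apart. Groups came from the sample titles.

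The counts were tested with edgeR 4.0.16 under R 4.3.3, and limma 3.58.1 and DESeq2 1.42.0 served as alternatives. Genes were kept by filterByExpr (minimum count 10, total 15), scaled by TMM and fitted with the robust quasi-likelihood method to all 16 libraries, 1 mean per group, with Benjamini-Hochberg adjustment over 19103 genes at 0.05. Standard errors and 95% intervals come from the same fit. The methods state no test for differential expression. In counts simulated for MmC without GDF11 over 19103 genes, with 200 changed, 28.4% of 1.41-fold, 85.1% of 2-fold and 98.5% of 4-fold changes were recovered. The real comparison called 8655 genes, which loosens the threshold on the unadjusted p. The simulated libraries also had no deviations shared between same-numbered libraries. The rates check the method and do not give the recovery of the real comparison.

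Same-numbered libraries were checked for shared deviations from their group means. Across genes, no correlation was under 0.113 when MmC was compared without GDF11, nor under 0.448 in the GDF11 comparison of senescent cells, so the numbers can be taken to pair these 2 comparisons. The values given are nevertheless those of the fit without a replicate term, and the block is given where it changes a call. The lowest values of the other comparisons were 0.0293 (MmC with GDF11) and 0.0982 (GDF11, young cells), which do not meet the limit of 0.1 used for pairing. Only the lowest value was under the limit in each. The highest values were 0.504 for GDF11 in young cells and 0.368 for MmC without GDF11. Missing the limit therefore does not show that the young GDF11 libraries are less paired.

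In 10338 genes whose mean count reached 500, the chi-square per degree of freedom between 2 libraries of a group was at least 56.9, where sampling noise alone gives 1, so none was counted as a copy of another. Positions and exon lengths came from GENCODE v44, and 60463 of 60649 features had a symbol. Of the words of 31 bases in the exons of the members, at most 0.879% (FOSB) also lay on 261 alternate contigs. SOD2 matched no single identifier and was left out.

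The members and gene lists were chosen with earlier results of these data known. Named are all members, and per list up to 3 highest and 3 lowest called genes by log2 fold change without GDF11 whose mean log2 CPM reached 1, and the 5 nearest patterns per member, of which some are shown. PECAM1, CD14, NT5E and ITGB1 are named under the same rule.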

Additional observations from a re-analysis of the deposited data

Results flagged for a closer look

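For each of the 10 factors in each of the 4 groups, the library farthest from its nearest neighbour was examined with Dixon's test at the 95% level, in 40 groups of 4. Chance flags about 1 in 20, and 5 were flagged. CEBPB had 211 CPM in replicate 2 of MmC+/GDF11-, where the other libraries had 93.4 to 101, and 168 CPM in replicate 2 of MmC+/GDF11+, where the others had 93.9 to 106. JUND had 150 CPM in replicate 2 of MmC+/GDF11-, where the others had 86.9 to 96.0. FOSL1 had 73.3 CPM in replicate 1 of MmC+/GDF11+, where the others had 130 to 139. CEBPD had 69.5 CPM in replicate 1 of MmC-/GDF11-, where the others had 44.3 to 46.6. No interaction of MmC and GDF11 was called for a member.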

How the results depend on the processing

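Of the 10 factors, FOSB, FOSL2 and ATF3 were called higher in both MmC comparisons under every alternative run (RLE scaling, no filter on low counts, at least 10 counts in every library, the compared libraries alone, a replicate block, limma-voom, DESeq2 and leaving out replicates), and so was CEBPD with GDF11. CEBPB with GDF11 lost its call without the filter (edgeR adjusted p = 0.0954) and without replicate 1 in all groups (adjusted p = 0.0570), beside the single libraries named above. With the replicate number as a block, 5 and 6 members were called (4 and 5 without it), as were 11066 and 11267 of all genes against 8655 and 8926. JUNB with GDF11 was gained under the block (log2 fold change 0.45, adjusted p = 0.0259). The block fitted to the compared libraries alone was added after seeing the data, and there JUND without GDF11 had -0.30 (adjusted p = 0.0581). It and DESeq2 each called 1 gene for GDF11 in young MSCs, where leaving out replicates gave 0 to 1. Without replicate 1 and without GDF11, 25 AP-1 targets were higher and 1 lower, C/EBP targets 18 and 3, other immediate early genes 19 and 3, MAP kinase phosphatases 6 and 0, other bZIP factors 16 and 6, and MAP kinases 6 and 12. The shares of all genes in that fit are not given here, so these counts are not set against them. The length of the longest transcript and the gene list counts without replicate 1 were also added after seeing the data.

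Every log2 fold change that turned sign belonged to a gene that was not called. In the interaction, FOSL2 was 0.00357 with RLE, 0.0104 without the filter, 0.00736 with at least 10 counts, 0.000658 with the replicate block and 0.0036 with DESeq2, and FOSL1 was -0.0271 with the replicate block and -0.0298 with limma-voom. For GDF11 in young MSCs, FOSL1 was 0.0277 with the replicate block, 0.0208 with the block in the compared libraries and 0.0253 with limma-voom, and FOSB was -0.00417 with the replicate block. For GDF11 in senescent MSCs, JUNB was 6.89e-05 without the filter and 0.00286 with the replicate block, and FOSL1 was -0.00446 with limma-voom. The cause was not tested.

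Leaving out single libraries gave these ranges where the sign turned. For MmC without GDF11 they were -0.22 to 0.51 for FOS and -0.33 to 0.0504 for FOSL1, and with GDF11 -0.21 to 0.0785 for FOSL1. For GDF11 in young MSCs they were -1.17 to 0.0156 for FOS, -0.079 to 0.17 for FOSB, -0.23 to 0.0982 for FOSL1, -0.12 to 0.0292 for FOSL2, -0.17 to 0.0476 for JUN, -0.31 to 0.0184 for JUNB and -0.0118 to 0.14 for ATF3. For GDF11 in senescent MSCs they were -0.26 to 0.42 for FOS, -0.44 to 0.15 for FOSB, -0.16 to 0.18 for FOSL1, -0.11 to 0.0402 for FOSL2, -0.0981 to 0.0511 for JUN, -0.19 to 0.18 for JUNB, -0.11 to 0.23 for JUND, -0.0252 to 0.0891 for ATF3, -0.30 to 0.29 for CEBPB and -0.0605 to 0.0942 for CEBPD. For the interaction they were -0.48 to 0.11 for FOSB, -0.14 to 0.24 for FOSL1, -0.081 to 0.0904 for FOSL2, -0.0698 to 0.15 for JUN, -0.0816 to 0.30 for JUNB, -0.11 to 0.0426 for ATF3 and -0.0266 to 0.57 for CEBPB. Without replicate 1 in all groups, JUN was -0.0208 for MmC without GDF11, JUNB was 0.00641 for GDF11 in senescent MSCs and ATF3 was 0.0513 for the interaction. FOS, with 1.02 to 8.91 CPM, was limited by the spread between libraries.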
